A study of Mus musculus with 12 samples.

Results

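The cells described are those that the authors' deposited metadata table places in cluster 3, T cells with very high levels of the granzyme genes Gzmc, Gzmd, Gzme, Gzmf and Gzmg. Matching the table to the expression matrices by library and barcode gave 3190 such cells among 30749. They came from tumours of C57Bl/6 mice that all carried MCA205 fibrosarcoma, a transplanted mouse sarcoma line, from 300000 cells injected under the skin. All mice also had oxaliplatin, a platinum chemotherapy (10 mg/kg, day 8), and 8 days after it an anti-PD1 antibody (200 µg), so no group is free of chemoimmunotherapy. The 3 anti-ACBP mice were given a neutralising antibody to acyl-CoA binding protein (ACBP, the product of Dbi). The 3 isotype mice received IgG2a. The dose of either antibody was 2.5 mg/kg, repeated every 2 days, starting 2 days ahead of oxaliplatin and ending 1 day ahead of anti-PD1. T cells were sorted 2 days after anti-PD1, mixed at equal numbers of CD4+ and CD8+ cells and loaded at 10000 per mouse. The labels give no age or sex. The question addressed here is what these granzyme-rich cells are and how they differ between anti-ACBP and isotype tumours.

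Granzymes are serine proteases that killer lymphocytes store in granules and release, with the pore protein perforin (Prf1), into a target cell. Gzmb is the best known of them. Gzmc to Gzmg are rodent genes that lie beside Gzmb on mouse chromosome 14 and are known to be switched on late, in strongly or repeatedly stimulated T cells and natural killer cells. CD8 T cells are the usual source, and CD4 T cells with granzymes, called cytotoxic CD4 cells, are known from tumours and chronic infection.

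Cluster 3 held 1136, 258 and 351 cells in anti-ACBP mice 1, 2 and 3, against 609, 390 and 446 in isotype mice 1, 2 and 3. Summed over these cells, the libraries held 11887762, 3386484 and 4047445 unique molecules (UMIs) in anti-ACBP mice, against 6264600, 2980025 and 3388413 in isotype mice. The median UMIs per cell were 9177, 11533 and 10401 in anti-ACBP mice, against 9285, 6904.5 and 6502.5 in isotype mice, so anti-ACBP cells were mostly more deeply covered. The share of cluster 3 cells assigned to the G1 phase in the deposited table was 81.3%, 79.1% and 79.8% in anti-ACBP mice, against 80.3%, 66.7% and 72.9% in isotype mice. The part of depth and phase in the results was not tested, beyond the tests in G1 cells alone and the cells thinned to equal depth given with them. In isotype mouse 1, 10.7% of the cells had 2 or more TRB chains, and 0.224% to 6.69% in the other 5 mice. Of all barcodes, 536 occurred in more than 1 library, and 120 cluster 3 cells carried such a barcode, but only 10 barcodes were shared by 2 cluster 3 cells. Levels are given as CPM, the share of all UMIs of the summed cells scaled in the usual way. Each molecule is counted once, at its 5′ end, so gene length does not enter. The numbers on the libraries name mice and imply no pairs.

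The T cell part of the cluster's label held. Cd3d, Cd3e and Cd3g, which encode chains of the T cell receptor complex, averaged 1381, 1187 and 1695 CPM in cluster 3, against 1419, 1361 and 1579 CPM in cluster 0, the largest cluster, where Cd8a averaged 1397 CPM. In cluster 3 Cd8a averaged 1143 CPM. The genes that define macrophages were at or near 0: C1qa had no UMI in cluster 3 of any mouse, and Csf1r and Lyz2 averaged 0.0266 and 0.0824 CPM. Over the whole macrophage and monocyte list, 5 of 16 genes were at 0 and the sum ran from 66.4 to 76.0 CPM in anti-ACBP mice and from 69.7 to 83.5 CPM in isotype mice. Ncr1, which marks natural killer cells, was at 0 in all anti-ACBP mice, against 4.47, 0.671 and 0 CPM in isotype mice 1, 2 and 3. Natural killer and gamma-delta T markers summed to 12.2 to 32.2 CPM in anti-ACBP mice and 21.3 to 34.2 CPM in isotype mice, with 4 of 14 at 0. Dendritic cell markers summed to 50.2 to 80.9 CPM in anti-ACBP mice and 30.2 to 62.3 CPM in isotype mice, with 5 of 14 at 0. B cell markers (5 of 9 at 0) did not exceed 7.68 CPM in anti-ACBP mice and 9.06 CPM in isotype mice, and neutrophil and mast cell markers (5 of 10 at 0) did not exceed 42.7 CPM in anti-ACBP mice and 33.0 CPM in isotype mice. CD4 and regulatory T cell markers, with 0 of 9 at 0, summed to 733.4 to 865.7 CPM in anti-ACBP mice and 921.0 to 1083 CPM in isotype mice. Red cell genes were at 0 throughout. The tumour and stromal list summed to 1897 to 1985 CPM in anti-ACBP mice and 1610 to 1896 CPM in isotype mice (2 of 13 at 0), but it holds Thy1, which T cells express, and its stromal genes Sparc and Col1a1 averaged 0.291 and 0.028 CPM.

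Such cells are described as terminal effector or exhausted CD8 cells. Exhausted T cells carry inhibitory receptors and the transcription factor Tox and lose function. Pdcd1, which encodes PD-1, averaged 874.9 CPM in cluster 3 against 850.5 CPM in cluster 0. Havcr2, which encodes TIM-3, averaged 294.3 against 238.6 CPM and Entpd1, which encodes the ectoenzyme CD39, 98.2 against 88.4 CPM. Lag3, another inhibitory receptor, averaged 654 CPM in cluster 3 and 762.6 CPM in cluster 0, and Tox 13.9 and 18.4 CPM. Cd101, a marker of terminal exhaustion, averaged 9.40 to 15.5 CPM in cluster 3 of single mice, against a mean of 30.5 CPM in cluster 0. Cd38, also taken as a marker of terminal exhaustion, averaged 38.4 CPM in cluster 3 and 44.2 CPM in cluster 0. With each cell thinned to 2000 UMIs, a Havcr2 UMI was found in 41.7% of cluster 3 cells, against 31.4% of cluster 0 cells, and a Pdcd1 UMI in 75.6% against 65.4% (means of 6 mice), both higher in cluster 3 of all 6 mice. The other genes of this set were not looked at in thinned cells. Of the genes named here Pdcd1, Havcr2 and Entpd1 were thus somewhat higher and Lag3, Tox, Cd101 and Cd38 lower in cluster 3. Tcf7, the transcription factor of progenitor-like T cells, averaged 2.61 CPM in cluster 3 and 23.3 CPM in cluster 0. All these are genes of the clustered cells, so they describe the cluster and were not tested between clusters.

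What set the cluster apart from clusters 0 and 6 was the granzyme block. Gzmf averaged 10440 CPM in cluster 3, against 64.3 CPM in the pooled clusters 0 and 6 (in cluster 6, Gzma averaged 6105 CPM). Gzmd averaged 2391 CPM against 28.8 CPM, Gzme 1544 against 26.3 CPM, Gzmg 387.6 against 2.28 CPM, and Gzmc 3500 against 112.1 CPM, most of that from cluster 6 at 683.3 CPM. The block was not confined to cluster 3. In cluster 4, where Mki67, a marker of dividing cells, averaged 749.9 CPM, Gzmf averaged 1439 CPM and Gzmc 611.5 CPM. Gzmd, Gzme and Gzmg averaged 250.7, 161.6 and 24.6 CPM there. Fcer1g, which encodes the Fc receptor gamma chain of innate cells, averaged 240.9 CPM against 28.4 CPM, and Spp1, which encodes the secreted protein osteopontin, 307.1 against 51.3 CPM. Among the genes lowest in cluster 3 relative to clusters 0 and 6 were the chemokine Ccl5 at 1028 against 4925 CPM, the chemokine receptor Cxcr3 at 10.7 against 52.6 CPM, and Gzmk at 55.9 against 163.9 CPM. The authors' clustering used the genes of these cells, so these are descriptions of what the cluster is.

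The start regions of the 5 genes share a stretch of nearly the same sequence. Each line gives 80 bases before each RefSeq start on the minus strand of chromosome 14 (GRCm38.p6), 5′ to 3′, with letters that differ from Gzmd in capitals.
Gzmd: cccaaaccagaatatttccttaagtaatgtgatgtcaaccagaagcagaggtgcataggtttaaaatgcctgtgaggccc
Gzme: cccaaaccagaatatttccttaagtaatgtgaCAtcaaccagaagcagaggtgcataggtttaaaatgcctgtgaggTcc
Gzmg: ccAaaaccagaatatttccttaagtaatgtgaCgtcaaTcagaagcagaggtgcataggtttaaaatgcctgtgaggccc
Gzmf: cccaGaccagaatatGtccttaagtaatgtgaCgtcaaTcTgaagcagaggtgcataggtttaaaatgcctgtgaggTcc
Gzmc: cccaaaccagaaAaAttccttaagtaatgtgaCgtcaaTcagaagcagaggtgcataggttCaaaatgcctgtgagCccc
They lie at chr14:56132604-56132683 for Gzmd, chr14:56120637-56120716 for Gzme, chr14:56159606-56159685 for Gzmg, chr14:56211439-56211518 for Gzmf and chr14:56234664-56234743 for Gzmc. Gzme and Gzmg each differed from Gzmd at 3 of the 80 bases and Gzmf and Gzmc at 6, while the best ungapped stretch of the Gzmb promoter differed at 50. From base 30 of these lines Gzmc, Gzmf and Gzmg hold TGACGTCA, a palindrome known as the full cyclic AMP response element, bound by CREB and ATF factors. Gzmd differs from it by C4T and Gzme by G5A, counted from the first base of the element. Over 250 bases before to 50 after the start, 1.79% of 32851 RefSeq mouse promoters hold TGACGTCA. The element was looked for after the sequences were seen. TGTGGT, the core bound by RUNX factors, was found on either strand in all 5 and in Gzmb, and in 16.8% of all promoters. TGANTCA, bound by AP-1, was found in Gzmb and in none of the 5, and in 7.81% of all promoters. TATAAA was found in none of the 5, and in 13.6% of all. A match of letters does not show that a factor binds there, and whether the element bears on the levels of these genes was not tested.

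Most cluster 3 cells held UMIs of 2 or more of the 5 genes. With each cell thinned to 2000 UMIs, a Gzmf UMI was found in 76.4% ± 2.77 of cluster 3 cells (SD over 6 mice), against 5.57% ± 1.81 in cluster 0 and 1.38% ± 1.26 in cluster 2, which serves as background (Foxp3, the regulatory T cell factor, averaged 557.1 CPM there). A Gzmd UMI was found in 56.8% ± 11.1 of cluster 3 cells, against 2.57% ± 1.25 in cluster 0 and 0.624% ± 0.391 in cluster 2. For Gzmc the shares were 59.4% ± 6.94, 5.79% ± 1.74 and 3.05% ± 1.12, and for Gzmg 12.4% ± 2.60, 0.366% ± 0.220 and 0.214% ± 0.260. Unthinned, the mean shares in cluster 3 were 79.7% for Gzmf, 64.6% for Gzmd, 73.0% for Gzmc and 21.7% for Gzmg. At most 0.505% of a mouse's thinned cluster 3 cells had none of the 5 genes. Cells with a UMI of only 1 of the 5 made up 15.3%, 14.96% and 23.7% in anti-ACBP mice, against 29.5%, 25.9% and 25% in isotype mice. Cells with 3 or more of the 5 made up 53.6%, 52.8% and 46.8% in anti-ACBP mice, against 38.6%, 33.9% and 43.4% in isotype mice, and the groups did not overlap. In cluster 0 that share was at most 1.03%.

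Within cluster 3 the genes did not all vary together from cell to cell. Across the cells of a mouse, Spearman's correlation of Gzmd with Gzme ran from 0.783 to 0.872 over the 6 mice (258 to 1136 cells each). For Gzmc with Gzmf it ran from 0.239 to 0.457, while for Gzmd with Gzmf it was 0.000279 to 0.177 and for Gzme with Gzmf -0.101 to 0.108. All genes of a cell share its depth, so these values are descriptions. Gzmd and Gzme are close copies, and UMIs could be split between them in counting, whose part in their likeness was not tested. Gzmg, whose element is intact, had correlations of 0.385 to 0.554 with Gzmd and 0.313 to 0.393 with Gzmf.

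The CD8 part of the label did not hold for all cells. Cells were set apart by their own UMIs: 2707 of the 3190, or 84.9%, had more Cd8a plus Cd8b1 than Cd4 UMIs (Cd8-bearing cells below), 448, or 14.0%, had more Cd4 (Cd4-bearing cells), and 35 had neither in excess. Cd4-bearing cells numbered 148, 32 and 42 in anti-ACBP mice, against 116, 52 and 58 in isotype mice, which is 11.97% to 13.03% of cluster 3 in anti-ACBP mice and 19.05%, 13.33% and 13% in isotype mice, so the groups overlapped. From 87.5% to 98.1% of the Cd4-bearing cells of a mouse had no Cd8 UMI at all. Summed per mouse, the Cd4-bearing cells had 8.04 CPM of Cd8a (range 0 to 23.3), against 1312 CPM (1216 to 1371) in the Cd8-bearing cells. Cd40lg, the CD40 ligand of helper T cells, averaged 163.2 ± 66.4 CPM in Cd4-bearing cells, against 3.50 ± 1.32 CPM in Cd8-bearing cells (SD, n = 6 mice), and Zbtb7b, the CD4 lineage transcription factor ThPOK, 24.4 ± 10.8 against 8.81 ± 3.31 CPM. Foxp3 averaged 26.7 ± 29.1 CPM in Cd4-bearing cells and 4.93 ± 3.28 CPM in Cd8-bearing cells. The median UMIs of the Cd4-bearing cells ran from 5323.5 to 11192 per mouse, below those of the Cd8-bearing cells in each mouse. A second TRB chain was seen in 8.78%, 0% and 2.38% of the Cd4-bearing cells of anti-ACBP mice and in 4.31%, 19.2% and 1.72% of those of isotype mice.

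T cell receptors separated the same cells. A clone was taken as the cells of a mouse with a single TRB chain of the same V gene and CDR3 nucleotides, and TRB sequence played no part in sorting cells by their Cd4 and Cd8 UMIs. Of 93 clones with at least 5 cluster 3 cells of either kind, 82 had under 20% Cd4-bearing cells, 11 had over 80%, and 0 lay between. Of 359 typed Cd4-bearing cells, 336 had a clone seen outside cluster 3, and for 334 of these (99.4%) most of the clone's cells there had more Cd4 UMIs. For the Cd8-bearing cells the same was true of 11 of 1815 (0.606%). The other cells of the Cd4-bearing clones lay mainly in cluster 1, from 51.8% to 73.1% per mouse, and those of the Cd8-bearing clones in cluster 0, from 59.0% to 71.6%. In anti-ACBP mouse 1, 31.0% of the other cells of Cd4-bearing clones lay in cluster 2, against 1.94% to 4.76% in the other 5 mice.

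**Figure D1:**
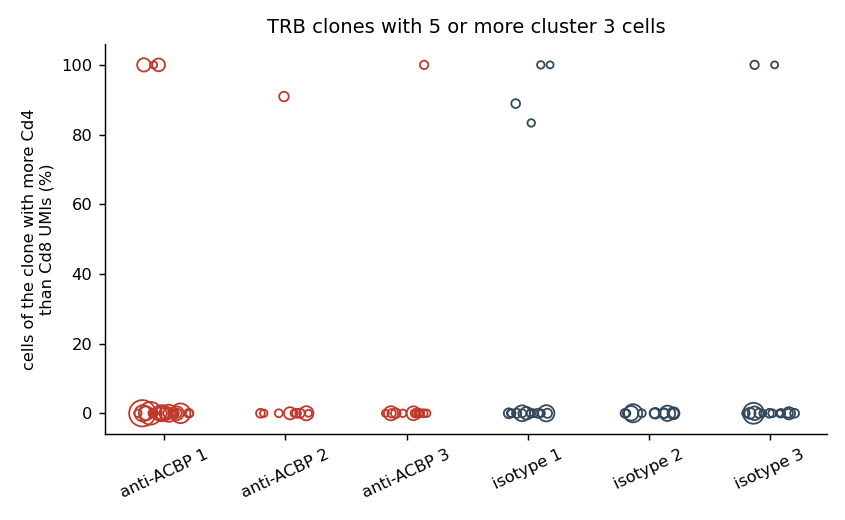
Share of a clone's cluster 3 cells with more Cd4 than Cd8 UMIs, in percent, for each TRB clone with 5 or more such cells. Each circle is 1 clone and its area grows with the number of cells, anti-ACBP mice are red and isotype mice dark blue; the 93 clones sit either under 20% (82 clones) or over 80% (11 clones).

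The largest Cd4-bearing and Cd8-bearing clones of 3 mice, picked after their values were seen, are shown as examples of where the cells of such clones lay. All are TRB CDR3 sequences from chromosome 6 as assembled by the authors, 5′ to 3′, with the bases between the first and last 4 codons in capitals.
anti-ACBP 1, Cd4-bearing, TRBV3 and TRBJ1-1: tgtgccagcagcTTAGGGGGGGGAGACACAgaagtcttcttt
anti-ACBP 1, Cd8-bearing, TRBV12-2 and TRBJ2-5: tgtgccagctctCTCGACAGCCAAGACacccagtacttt
anti-ACBP 2, Cd4-bearing, TRBV15 and TRBJ1-4: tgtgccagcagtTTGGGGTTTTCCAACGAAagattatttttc
anti-ACBP 2, Cd8-bearing, TRBV16 and TRBJ2-5: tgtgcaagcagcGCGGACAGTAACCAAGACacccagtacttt
isotype 3, Cd4-bearing, TRBV1 and TRBJ1-5: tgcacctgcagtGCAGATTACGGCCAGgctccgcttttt
isotype 3, Cd8-bearing, TRBV13-1 and TRBJ2-7: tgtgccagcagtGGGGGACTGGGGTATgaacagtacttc
The TRBV3 clone of anti-ACBP mouse 1 had 24 of its 43 cells in cluster 3 and 1 in cluster 0, whereas the TRBV12-2 clone of that mouse had 95 of 612 in cluster 3 and 313 in cluster 0. The TRBV15 clone of anti-ACBP mouse 2 had 11 of 109 cells in cluster 3 and 62 in cluster 1. The TRBV1 clone of isotype mouse 3 had 8 of 27 cells in cluster 3 and 8 in cluster 1, and the TRBV13-1 clone of that mouse 59 of 205 in cluster 3 and 105 in cluster 0.

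The 2 kinds of cell used the granzymes differently. Gzmf reached 5319, 2834 and 3932 CPM in the Cd4-bearing cells of anti-ACBP mice 1 to 3 and 3261, 3050 and 5778 CPM in those of isotype mice 1 to 3. In the Cd8-bearing cells it reached 10870, 11120 and 11940 CPM in anti-ACBP mice and 10950, 11230 and 12380 CPM in isotype mice. Gzmf was thus lower in the Cd4-bearing cells of all 6 mice, with means of 4029 ± 1242 and 11420 ± 607 CPM (SD, n = 6). Gzmd went the other way, at 4413 ± 988 CPM in Cd4-bearing cells and 2119 ± 588 CPM in Cd8-bearing cells, and so did Gzme, at 3442 ± 693 and 1288 ± 383 CPM, both higher in the Cd4-bearing cells of 6 of 6 mice. Gzmc, at 2756 ± 749 and 3549 ± 1044 CPM, was higher in the Cd4-bearing cells of 2 mice. Prf1 averaged 350.1 ± 204 CPM in Cd4-bearing and 883.4 ± 210 CPM in Cd8-bearing cells, Gzmb 1809 ± 966 and 5711 ± 1158 CPM, and Gzma 29.8 ± 44.7 and 722.1 ± 293 CPM, each lower in the Cd4-bearing cells of all 6 mice. Fcer1g, one of the cluster's markers, averaged 20.3 ± 20.2 CPM in Cd4-bearing cells and 269.1 ± 93.2 CPM in Cd8-bearing cells. Thinned to 2000 UMIs, 52.0% ± 7.99 of Cd4-bearing cells had a Gzmd or Gzme UMI and no Gzmf UMI, against 11.1% ± 4.45 of Cd8-bearing cells. Gzmd and Gzme stayed close within each kind, with a median correlation over mice of 0.829 in Cd8-bearing and 0.804 in Cd4-bearing cells. For Gzmc with Gzmf the medians were 0.384 and 0.42, and for Gzmd with Gzmc 0.237 and -0.136. For Gzmd with Gzmf they were 0.247 and 0.107, and for Gzme with Gzmf 0.151 and 0.115. Over all cluster 3 cells these last 2 pairs had medians of 0.122 and -0.00335. In Cd8-bearing cells alone, the distance of Gzmd and Gzme from Gzmf was thus smaller than in all cells.

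Several genes high in cluster 3 relative to clusters 0 and 6, among them Areg, Penk, Ccl1, Ccl3 and Il1r2, had far higher levels in the Cd4-bearing cells. Areg, the growth factor amphiregulin, averaged 881.6 ± 506 CPM in Cd4-bearing cells, against 37.3 ± 23.3 CPM in Cd8-bearing cells. Penk, the precursor of enkephalin peptides, averaged 1465 ± 1160 against 19.8 ± 15.5 CPM, and Il1r2, the decoy receptor for interleukin-1, 1404 ± 291 against 270.0 ± 98.8 CPM. The chemokines Ccl1 and Ccl3 averaged 865.3 ± 860 and 625.5 ± 401 CPM in Cd4-bearing cells, against 43.9 ± 31.1 and 82.5 ± 60.1 CPM in Cd8-bearing cells, and Tnfrsf4, the costimulatory receptor OX40, 799.8 ± 113 against 212.4 ± 39.0 CPM. Each of these 6 genes was higher in the Cd4-bearing cells of all 6 mice (SD, n = 6 throughout). Pdcd1 was alike at 852.8 ± 87.9 and 881.9 ± 71.2 CPM. The split uses only Cd4, Cd8a and Cd8b1, but the cells were clustered on their other genes, so these values too are a description. Cd4-bearing cells of other clusters were not compared for these genes, so the levels are not shown to be particular to cluster 3.

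**Figure D2:**
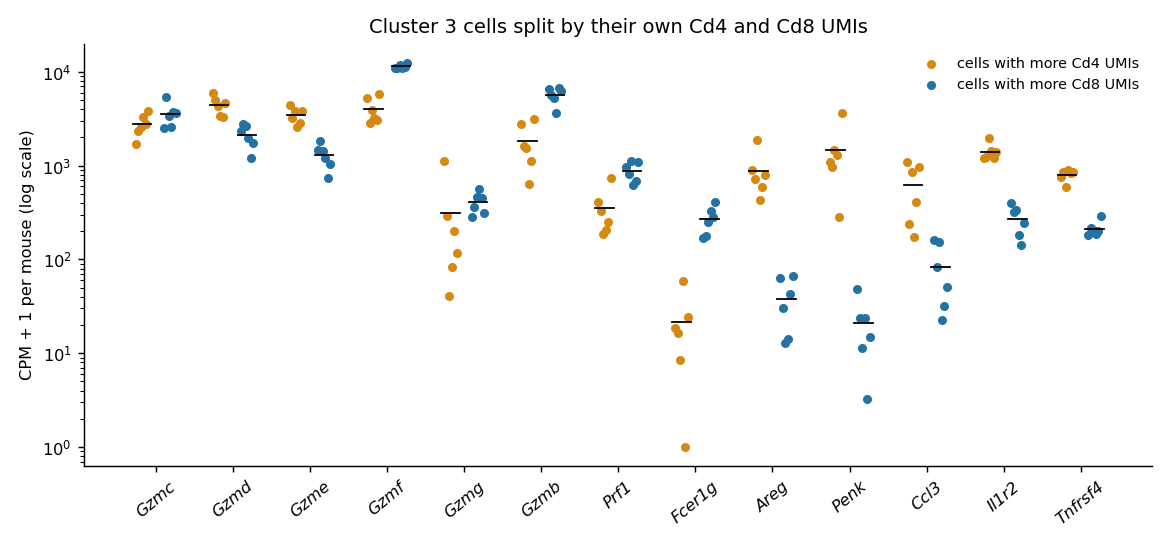
Level of 13 genes in cluster 3 cells with more Cd4 UMIs (orange, left) and more Cd8 UMIs (blue, right), as CPM + 1 on a log scale. Each point is 1 of the 6 mice and the bar is the mean; Gzmf, Gzmb, Prf1 and Fcer1g lie lower and Gzmd, Gzme, Areg, Penk, Ccl3, Il1r2 and Tnfrsf4 higher in the cells with more Cd4 UMIs.

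Clones of cluster 3 were large, and most of their cells had a clone shared with cluster 0. The largest clone took 11.95%, 12.5% and 10.0% of typed cluster 3 cells in anti-ACBP mice, against 9.78%, 15.1% and 17.99% in isotype mice. The chance that 2 cluster 3 cells of a mouse carry the same clone was 3.96%, 3.65% and 2.92% in anti-ACBP mice, against 2.80%, 5.58% and 4.90% in isotype mice. The groups overlapped, and the difference of -0.919 percentage points gave an exact two-sided permutation p = 0.4, where 3 against 3 mice cannot go below 0.1. Within mice the same measure was 0.301 points higher in cluster 3 than in cluster 0, with 4 of 6 mice higher (exact sign-flip permutation p = 0.688, smallest possible 0.0313). From 77.9% to 90.9% of typed cluster 3 cells had a clone also found in cluster 0 of the same mouse. Sharing was not particular to cluster 0. The share ran from 66.5% to 86.6% for cluster 4 and from 46.15% to 88.3% for cluster 5. For cluster 1 it ran from 46.7% to 78.2%, and for cluster 6 from 37.7% to 65.5%. Such shares depend on how many typed cells the other cluster has, so they do not rank the clusters. Cluster 0 had 854 to 1791 typed cells per mouse and cluster 6 had 84 to 266. The Morisita-Horn overlap of clusters 3 and 0, which is 1 for equal clone shares, was 0.830, 0.500 and 0.786 in anti-ACBP mice, against 0.686, 0.695 and 0.753 in isotype mice. Its difference of -0.00553 gave an exact permutation p = 1.0, and the sign turned without anti-ACBP mouse 2 (0.0971) and without isotype mouse 3 (0.0153). Over the 6 mice the overlap of cluster 3 averaged 0.7085 with cluster 0, 0.638 with cluster 6 and 0.612 with cluster 4. With cluster 2, the cluster high in Foxp3, it was 0.0122 to 0.0378. The overlap of clusters 0 and 6 with each other averaged 0.687. Typed cells made up 58.8% to 80.6% of cluster 3 cells per mouse.

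The largest cluster 3 clones had very different shares of their cells in cluster 3. Among the 5 largest cluster 3 clones of each mouse, the share of a clone's cells found in cluster 3, out of its cells in clusters 0, 3, 4, 5 and 6, ran from 4.17% to 67.2%. The highest was a TRBV5 clone of anti-ACBP mouse 1 with 39 of 58 cells (95% Wilson interval 54.4% to 77.9%), where 25.1% of all such typed cells were in cluster 3. The lowest was a TRBV17 clone of isotype mouse 1 with 12 of 288 cells (2.40% to 7.14%), where 12.8% of all such typed cells were in cluster 3. Cells of a clone share their mouse and library, and the intervals cover counting error only. The clones were picked by their number of cells in cluster 3, which the share also measures, so high shares were favoured.

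Some receptors recurred between mice. Translated, cluster 3 held 527 different TRB receptors, of which 41 were found in cluster 3 of 2 or more mice and made up 24.6% of its 2240 typed cells. The widest spread was 5 of 6 mice, for a TRBV15 receptor with 11 cells and for one whose V segment is given as TRBV12-2+TRBV13-2, with 57 cells in cluster 3 and 318 in all clusters. The second receptor was spelled in 5 ways that encode the same amino acids, and none of its cell barcodes was used in 2 libraries. The spellings that had cells in cluster 3 are shown from the CDR3 start, with letters that differ from the first in capitals.
anti-ACBP 1, 6 of 49 cells in cluster 3, and isotype 2, 28 of 82: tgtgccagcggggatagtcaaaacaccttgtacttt
anti-ACBP 1, 3 of 9, anti-ACBP 2, 7 of 16, and isotype 1, 7 of 93: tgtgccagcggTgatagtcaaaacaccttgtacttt
anti-ACBP 2, 3 of 15, and anti-ACBP 3, 1 of 8: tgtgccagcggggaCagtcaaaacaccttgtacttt
anti-ACBP 2, 2 of 18: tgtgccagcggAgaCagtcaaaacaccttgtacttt
The later spellings differ from the first by G12T, by T15C, and by G12A with T15C, counted from the first base. The mice with this receptor were all 3 anti-ACBP mice and isotype mice 1 and 2.

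Between anti-ACBP and isotype tumours, cluster 3 differed in few genes, and those that fell include genes of glucose uptake and use. Of 9634 genes tested with edgeR's quasi-likelihood test on sums per mouse (Benjamini-Hochberg adjusted p under 0.05), 4 rose (0.0415%) and 17 fell (0.176%) with anti-ACBP, 0.218% in all. At an unadjusted p under 0.05 there were 1083. The 2 groups did not overlap in any of the 21, as was the case for 17.4% of all tested genes. The count rests on single mice: it was 5 without isotype mouse 3, 10 without anti-ACBP mouse 1, 69 without isotype mouse 2 and 281 without isotype mouse 1. Of the 21 genes, 5 remained called without isotype mouse 3, and 8, 12 and 16 without anti-ACBP mice 1, 2 and 3. Slc2a1 and Ddit4 passed in all of these settings, and each of the 21 kept its direction in all of them. In a bulk sum, a change in the mix of cells and a change in RNA per cell cannot be told apart.

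Hk2, the hexokinase that traps glucose in the cell, had 15.6, 15.7 and 14.8 CPM in anti-ACBP mice, against 41.3, 46.3 and 41.0 CPM in isotype mice. Every anti-ACBP mouse lay well under every isotype mouse, and on the log2 scale the change was -1.50 ± 0.13 (SE, adjusted p = 0.000253 by edgeR). Slc2a1, the glucose transporter GLUT1, had 63.3, 59.9 and 70.2 CPM in anti-ACBP mice, against 136.5, 111.1 and 131.0 CPM in isotype mice (-1.004 ± 0.105, adjusted p = 0.000688). Pgam1, a glycolytic mutase, fell by 0.49 on the log2 scale, with 475.3, 453.9 and 457.8 CPM in anti-ACBP mice, against 626.2, 595.0 and 692.4 CPM in isotype mice (adjusted p = 0.0230). Hilpda, which coats lipid droplets and is induced by low oxygen, averaged 230.1 ± 28.6 CPM in anti-ACBP mice and 493.3 ± 99.3 CPM in isotype mice (SD, n = 3 each; -1.13 ± 0.15, adjusted p = 0.0304). Ddit4, a stress-induced inhibitor of mTORC1, had 139.4, 177.5 and 159.4 CPM in anti-ACBP mice, against 317.3, 383.6 and 399.0 CPM in isotype mice (-1.24 ± 0.11, adjusted p = 0.000264). These 5 are the called members of the glycolysis and hypoxia list, where 5 of 36 tested genes fell, 0 rose and 31 did not pass. Its median log2 fold change was -0.24, beside -0.003 over all tested genes, and 14 of the 36 were lower without overlap, beside 6.23% of all tested genes. The list's more abundant enzymes did not pass: Ldha, lactate dehydrogenase, had a log2 fold change of -0.16 ± 0.07 (adjusted p = 0.440) and Aldoa, an aldolase, -0.13 ± 0.08 (adjusted p = 0.578).

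Prdm1 (Blimp-1), which drives terminal effector differentiation, had 17.7, 15.4 and 22.2 CPM in anti-ACBP mice, against 35.0, 51.7 and 47.8 CPM in isotype mice (-1.29 ± 0.17, adjusted p = 0.00669). Fosl2, an AP-1 subunit, had 65.5, 80.02 and 77.1 CPM in anti-ACBP mice, against 147.5, 171.5 and 172.4 CPM in isotype mice (-1.18 ± 0.10, adjusted p = 0.000253). Junb, another AP-1 subunit, averaged 443.6 ± 40.5 and 905.0 ± 132 CPM (SD, n = 3 each; -1.06 ± 0.11, adjusted p = 0.000688). Nfil3, a leucine zipper repressor, fell by 0.82, Per1, a clock gene, by 0.88, and Zfp292, a zinc finger gene, by 0.59 on the log2 scale (adjusted p = 0.00445, 0.00404 and 0.0264). Of 30 tested receptor-signal and AP-1 genes 2 fell and 0 rose, their median was 0.11, and Fosb stood at 1.15 ± 0.22 (adjusted p = 0.0642). The other genes that fell were Pim3, a survival kinase (-1.03), Abhd18 (-1.33), Jmjd6, an arginine demethylase and lysyl hydroxylase (-0.84), Samd9l, an interferon-induced gene (-0.64), Alkbh5, an eraser of the RNA mark m6A (-0.58), and 1 gene known only by a clone number.

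**Figure D3:**
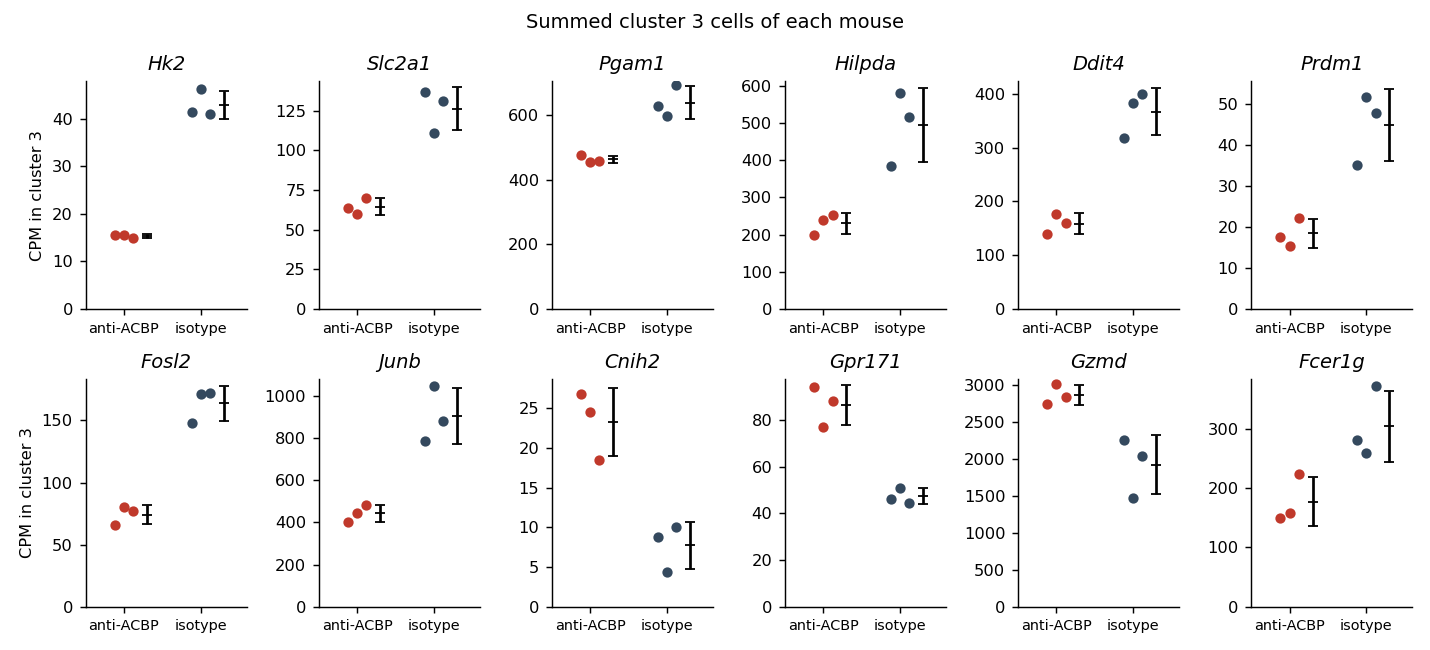
Level of 12 genes in the summed cluster 3 cells of each mouse, in CPM on axes that start at 0. Points are mice, anti-ACBP (red) left of isotype (dark blue), with mean and SD in black; 10 of the genes passed the test, and Gzmd and Fcer1g did not although their groups do not overlap.

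The 4 genes that rose were Cnih2, Rrad, Ing3 and Gpr171. Gpr171, a G protein-coupled receptor of T cells, had 93.9, 76.8 and 88.2 CPM in anti-ACBP mice, against 46.3, 51.0 and 44.6 CPM in isotype mice (0.85 ± 0.11, adjusted p = 0.00437). Cnih2, a cargo receptor of the early secretory pathway, had 26.8, 24.5 and 18.5 CPM in anti-ACBP mice, against 8.78, 4.36 and 10.0 CPM in isotype mice (1.54 ± 0.24, adjusted p = 0.0245). Cnih2 was itself among the genes lowest in cluster 3 relative to clusters 0 and 6, at 15.5 against 59.4 CPM. Rrad, a small GTPase, rose by 0.99 ± 0.17 and Ing3, a chromatin reader, by 0.88 ± 0.16 on the log2 scale (adjusted p = 0.0296 and 0.0443).

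None of the granzyme genes that define the cluster passed edgeR's test on all cluster 3 cells. Gzmd had 2746, 3006 and 2831 CPM in anti-ACBP mice, against 2253, 1476 and 2036 CPM in isotype mice. Gzme had 1800, 2006 and 1667 CPM in anti-ACBP mice, against 1470, 994.0 and 1328 CPM in isotype mice. Neither pair of groups overlapped, yet the log2 fold changes of 0.54 ± 0.15 and 0.50 ± 0.14 had adjusted p = 0.227 and 0.247. Both were called higher, with changes of 0.36 to 0.54, by DESeq2 (adjusted p = 0.0149 for Gzmd and 0.0412 for Gzme), with no filter on low counts (2.3e-06 for both) and without the 5 largest clones (0.0137 and 0.0482). They were not called in the other settings. DESeq2 called 20 genes higher and 54 lower in all, no filter 146 and 182, and leaving out the 5 largest clones 14 and 36. A replicate block called 102 and 132, and it pairs mice that the labels do not pair. Gzmf, at 10456 ± 473 CPM in anti-ACBP mice and 10428 ± 1209 CPM in isotype mice (SD, n = 3 each), stood at -0.03 ± 0.08 (adjusted p = 0.924). Gzmc stood at 0.04 ± 0.30, Gzmg at -0.06 ± 0.15, Gzmb at 0.09 ± 0.32, Gzma at 0.36 and Prf1 at 0.23 ± 0.29, and of 18 tested granzyme and perforin genes 0 were called, with a median of 0.14. Gzmk, a granzyme of less differentiated cells, stood at -0.61 ± 0.16 (adjusted p = 0.178), and was called lower with no filter and with a replicate block (adjusted p = 0.000181 and 0.0013). In single Cd8-bearing cells thinned to 2000 UMIs, Gzmd or Gzme was found in 71.4%, 64.9% and 64.9% in anti-ACBP mice, against 55.1%, 37.5% and 56.4% in isotype mice, while Gzmf was found in 81.0%, 78.4% and 83.6%, against 87.5%, 86.3% and 87.1%. Neither measure overlapped between the groups. No test was made on these shares, which come from the same UMIs as the sums. The summed Gzmf of the Cd8-bearing cells did overlap between the groups, at 10870 to 11940 CPM in anti-ACBP mice and 10950 to 12380 CPM in isotype mice.

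**Figure D4:**
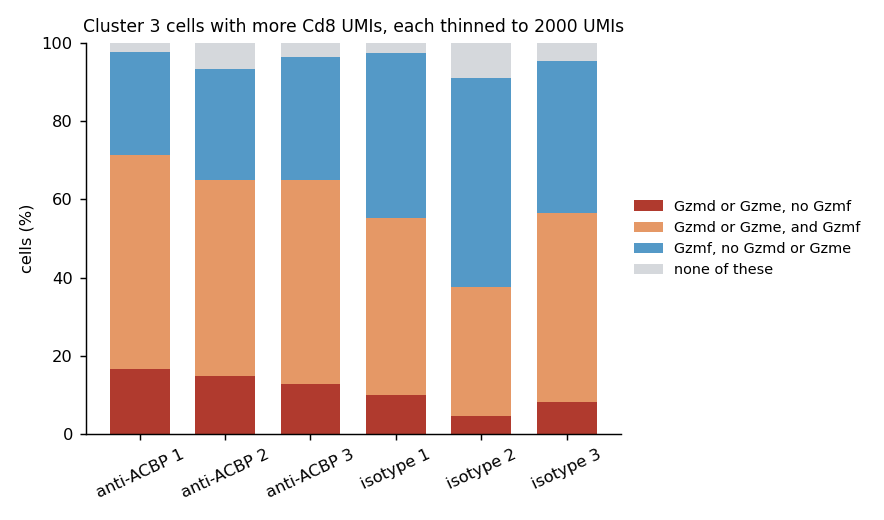
Percent of cluster 3 cells with more Cd8 than Cd4 UMIs that hold a UMI of Gzmd or Gzme only, of both these and Gzmf, of Gzmf only, or of none, each cell thinned to 2000 UMIs. One bar is 1 mouse; cells with Gzmf and no Gzmd or Gzme make up 26.2% to 31.4% in anti-ACBP mice and 38.9% to 53.4% in isotype mice.

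Other markers of the cluster and of exhaustion were not called in that test either. Fcer1g had 149.7, 158.0 and 224.3 CPM in anti-ACBP mice, against 281.4, 259.7 and 372.4 CPM in isotype mice, without overlap (-0.82 ± 0.19, adjusted p = 0.180). It was called lower by DESeq2 (adjusted p = 0.000244), with no filter (2.73e-10), with a replicate block (1.29e-07), without the 5 largest clones (0.0255) and without anti-ACBP mouse 3 (0.0325). Each of these settings also called more genes in all than the main test. Spp1 stood at -0.59 ± 0.61, Pdcd1 at -0.16 ± 0.08, Havcr2 at 0.19 ± 0.09, Lag3 at 0.25 ± 0.09, Tox at -0.67 ± 0.52 and Ifng, the cytokine interferon-gamma, at 0.14 ± 0.38, with adjusted p between 0.290 for Lag3 and 0.921 for Ifng. Tcf7 was too low to be tested, at 2.02, 2.36 and 0.988 CPM in anti-ACBP mice, against 5.59, 2.35 and 2.36 CPM in isotype mice. Dbi, whose protein the antibody neutralises, had 154.6, 171.6 and 155.9 CPM in anti-ACBP mice, against 136.8, 184.9 and 203.6 CPM in isotype mice (-0.15 ± 0.13, adjusted p = 0.715). The antibody acts on protein, so Dbi RNA does not check the treatment. Mki67, a marker of dividing cells, stood at -0.64 ± 0.27 (adjusted p = 0.452, and 0.0193 with no filter), and of the 46 tested cell cycle genes 0 were called, with a median of -0.35 and 42 negative values. Of 24 inhibitory receptor and exhaustion genes 1 fell (Prdm1), of 42 type I interferon genes 1 fell (Samd9l), of 29 amino acid and nutrient stress genes 1 fell (Ddit4), and no gene was called in the remaining lists of genes that T cells use, whose medians lay between -0.30 and 0.22.

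The changes were looked at within the 2 lineages. Junb, Ddit4, Hilpda and Prdm1 had higher levels in the Cd4-bearing than in the Cd8-bearing cells of all 6 mice, for Junb 1812 ± 670 against 505.3 ± 219 CPM (SD). In Cd8-bearing cells alone 32 of 9470 genes were called (0.338%), and 18 of the 21 were again among them. Junb, Pim3 and Ing3 missed the threshold there (edgeR adjusted p = 0.0984, 0.0519 and 0.0546) at changes of -1.02, -1.05 and 0.89, close to those of all cells. In Cd4-bearing cells alone, with 327591 to 1365276 UMIs per mouse, 8 of 4783 genes were called (0.167%), named here after their values were seen, and 2 of the 17 genes of the 21 that could be tested there were among them. Slc2a1 and Ddit4 fell in those cells as well, by 1.10 ± 0.18 and 1.05 ± 0.15 on the log2 scale (adjusted p = 0.00525 and 0.00128), and so did Ankrd37, a hypoxia gene, by 1.52, and Rgs16, a regulator of G protein signalling, by 0.91. The macrophage growth factor Csf1 had 461.4, 388.8 and 451.3 CPM in the Cd4-bearing cells of anti-ACBP mice, against 129.1, 152.6 and 148.8 CPM in those of isotype mice (1.58 ± 0.15, adjusted p = 7.15e-06). Lmna, which encodes lamin A, had 115.7, 84.4 and 137.1 CPM, against 25.8, 12.2 and 20.4 CPM (2.31 ± 0.27, adjusted p = 0.000118). Txnip, an inhibitor of glucose uptake, had 245.4, 235.3 and 289.2 CPM, against 95.2, 91.6 and 113.8 CPM (1.32 ± 0.16, adjusted p = 0.000184), and Emp1, a membrane protein gene, rose by 1.53 ± 0.28 (adjusted p = 0.0179). In the Cd8-bearing cells Csf1, Lmna, Txnip and Emp1 stood at 1.25, 2.28, 0.88 and 1.31 without passing. Whether the changes differ between the lineages was not tested.

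Whether the change with anti-ACBP differs between clusters 3 and 0 was tested in 1 model of both clusters that gives each mouse its own level. Of 10796 genes 28 were called for the difference (0.259%), 10 with a more positive and 18 with a more negative change in cluster 3. Of the 21 genes called in cluster 3, 1 was among them, Hilpda, with -1.13 ± 0.15 in cluster 3 and -1.50 ± 0.19 in cluster 0, a difference of 0.35 ± 0.07 (edgeR adjusted p = 0.0283, but 0.123, 0.138 and 0.122 without anti-ACBP mouse 2, isotype mouse 2 and isotype mouse 3, and 0.0643 without cells of 2 or more TRB chains). Hk2 stood at -1.50 in cluster 3 and -1.27 in cluster 0, Prdm1 at -1.29 and -1.46, Ddit4 at -1.24 and -1.48, Slc2a1 at -1.004 and -1.06 and Gpr171 at 0.85 and 0.82, and none of these 5 differences was called. Both comparisons use the same mice, and in cluster 0 alone 134 of 10804 genes (1.24%) were called. Of the 21 genes called in cluster 3, 14 were among these 134, and all 21 had the same sign in cluster 0. The 28 became 10 without isotype mouse 1 and 16 without anti-ACBP mouse 2. Cnih2 stood at 1.54 ± 0.24 in cluster 3 and 0.54 ± 0.19 in cluster 0, and the difference was not called either (adjusted p = 0.683).

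**Figure D5:**
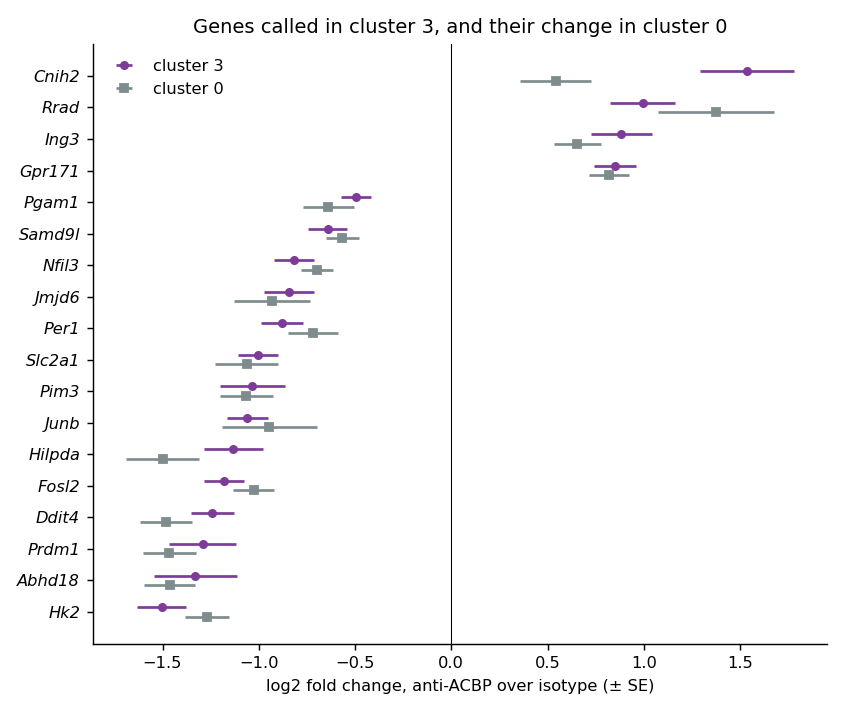
Log2 fold change of anti-ACBP over isotype with its SE, for 18 genes called in cluster 3, in cluster 3 (purple circles) and in cluster 0 of the same mice (grey squares). Cnih2 lies furthest apart, at 1.54 in cluster 3 and 0.54 in cluster 0; of these 18 genes the difference was called for Hilpda, at -1.13 in cluster 3 and -1.50 in cluster 0.

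Itgb1, which encodes the integrin beta 1 chain, and Gimap9, a GTPase of lymphocyte survival, were called for the difference under every alternative run. So was Rln3, a relaxin gene near 0 CPM. In cluster 3 Itgb1 had 88.4, 110.7 and 93.4 CPM in anti-ACBP mice, against 138.6, 136.2 and 136.3 CPM in isotype mice. In cluster 0 it had 165.7, 248.4 and 156.1 CPM in anti-ACBP mice, against 147.1, 172.7 and 177.6 CPM in isotype mice, where the groups overlap. The changes of -0.53 ± 0.10 in cluster 3 and 0.16 ± 0.17 in cluster 0 differed by -0.69 ± 0.09 (adjusted p = 0.00240). Gimap9 had 64.5, 58.2 and 64.2 CPM in cluster 3 of anti-ACBP mice, against 58.1, 56.7 and 54.6 CPM in isotype mice, while in cluster 0 it had 66.0, 56.5 and 68.1 CPM in anti-ACBP mice against 78.2, 88.4 and 85.5 CPM in isotype mice. Its changes of 0.11 ± 0.10 and -0.44 ± 0.09 differed by 0.52 ± 0.09 (adjusted p = 0.00681). Lag3 stood at 0.25 ± 0.09 in cluster 3 and -0.05 ± 0.07 in cluster 0, a difference of 0.29 ± 0.06 that did not pass (adjusted p = 0.0810).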

How the data were processed

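Single-cell 5′ expression and receptor libraries of 6 mice were used. The deposited matrices hold unscaled UMI counts, per the file headers and values. Cell Ranger 7.0.0, Seurat and mm10 are named, with no role, in the submitters' processing notes. The deposited cell table gives cluster, phase and an unexplained column DF1. UMI counts of receptor contigs come from the deposited receptor tables. For all cells used, the matrix sum equalled the table's UMI total, and the lowest number of genes per cell was 800. The sources used here do not say whether background RNA or doublets were removed. Cells with 2 or more TRB chains were kept and left out in an alternative.

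UMI counts were summed per mouse over cluster 3 and tested with edgeR 4.0.16 (R 4.3.3, quasi-likelihood, robust, TMM, filterByExpr, Benjamini-Hochberg at 0.05), leaving out 660 receptor and immunoglobulin genes. The difference from cluster 0 was an interaction term, with a level for each mouse. The scripts were tested on simulated data. Positive changes mean higher with anti-ACBP, and all tests were two-sided. DESeq2 1.42.0 was an alternative. CPM in the text is the share of all UMIs. Nothing in the labels says that libraries with the same number are paired.

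Genes named are the cluster's markers, 12 fixed genes, up to 12 higher and 12 lower called genes with the largest change, at least 10 CPM in a group and no overlap, called members of the 26 lists, and for the difference the 6 with the smallest p each way. Genes known only by a number were counted and not named. Other genes named were chosen with their values known. The cluster, the gene lists and the rule were chosen with earlier results of these data known. Sequences of promoters are RefSeq's (GRCm38.p6). All 5 granzymes were matched by symbol. Intervals are 95% Wilson.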

Additional observations from a re-analysis of the deposited data

Results flagged for a closer look

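The changes with anti-ACBP differed between clusters 3 and 0 of the same mice, by the interaction test, for the genes given here as the log2 change in cluster 3 minus that in cluster 0. More negative in cluster 3 were Itgb1 (-0.69), Ell2, an elongation factor of transcription (-0.65), Tnfaip8l2, an inhibitor of T cell activation (-0.56), Gpr132, a receptor for lysolipids (-0.50), and Ifrd1 (-0.47). More positive in cluster 3 were Chchd10, a mitochondrial protein (0.55), Gimap9 (0.52), Gimap7 (0.45), Gimap4 (0.28), Rgs16 (0.37) and Hilpda (0.35). Of 10 alternatives, the difference remained called in 4 for Gimap4, 6 for Chchd10 and Hilpda, 8 for Gimap7, Rgs16, Gpr132 and Ifrd1, 9 for Ell2 and Tnfaip8l2, and 10 for Itgb1 and Gimap9, and no sign turned in any of them. Gimap7, Gimap4 and Chchd10 stood at -0.29, -0.08 and -0.10 in cluster 3 and at -0.72, -0.37 and -0.58 in cluster 0, and none of these single changes passed. For Tnfaip8l2 the change was 0.41 in cluster 3 and 0.96 in cluster 0, and for Ell2 -0.04 and 0.59, also without passing.

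The remaining pair are genes near 0. Il5, the eosinophil growth factor, had a fitted difference of 6.77, with 4.54, 0.295 and 4.69 CPM in cluster 3 of anti-ACBP mice, against 0.958, 0.671 and 0 CPM in isotype mice, and in cluster 0 0.0729, 0 and 0.571 CPM in anti-ACBP mice against 9.65, 0 and 0.129 CPM in isotype mice. Its difference was 1.99 and no longer called without isotype mouse 1, and 8.44 without anti-ACBP mouse 3. Rln3, a relaxin gene, had a fitted difference of -4.18, with 1.77, 1.77 and 1.24 CPM in cluster 3 of anti-ACBP mice, against 7.82, 4.03 and 1.48 CPM in isotype mice, and in cluster 0 1.90, 0.713 and 1.79 CPM in anti-ACBP mice against 0.536, 0 and 0 CPM in isotype mice. The Rln3 difference remained called in all 10 alternatives. The fitted values of both genes rest on few UMIs. Groups of 3 mice are too small to look for single outlying mice.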

How the results depend on the processing

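The number of genes called between anti-ACBP and isotype cluster 3 depended on the setting. Against 21 (4 higher, 17 lower) it was 328 (146 and 182) with no filter on low counts, 74 (20 and 54) with DESeq2, 40 (8 and 32) in DF1 TRUE cells, 46 (6 and 40) in G1 cells, 50 (14 and 36) without the 5 largest clones, 32 (7 and 25) in cells with more Cd8 UMIs and 8 (4 and 4) in cells with more Cd4 UMIs, the last chosen after seeing the data. With a replicate block it was 234 (102 and 132), although nothing in the labels pairs same-numbered mice, whose deviations from the group means correlated at 0.248, 0.0522 and -0.0214. Leaving out 1 mouse gave 5 to 281. The cause of these shifts was not tested. DESeq2, the block, other size factors and no filter called all 21 again. The 28 differences from cluster 0 became 112 (47 and 65) with no filter and 10 to 37 with 1 mouse left out, with 16 without anti-ACBP mouse 2.

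Among granzymes, cytokines and Spp1, none of which passed in the test on all cells, some signs turned. Gzmd and Gzme, whose sign held, were called higher by DESeq2, with no filter and without the 5 largest clones, and Fcer1g was called lower in these and with the replicate block. With 1 mouse left out the log2 change ran from -0.103 to 0.062 for Gzmf, -0.294 to 0.255 for Gzmc (-0.066 without isotype mouse 1), -0.9 to 0.172 for Spp1, -0.019 to 0.658 for Gzma, -0.17 to 0.254 for Gzmb (-0.003 without anti-ACBP mouse 1), -0.232 to 0.069 for Gzmg and -0.104 to 0.374 for Ifng. In DF1 TRUE cells Gzmf was at 0.002 and Ifng at -0.202, and without cells of 2 or more TRB chains Gzmf was at 0.03 and Gzmg at 0.123. In G1 cells Gzmg was at 0.226 and Ifng at -0.21. Without the 5 largest clones Gzmc was at -0.02 and Gzmg at 0.027, and with the replicate block Gzmc was at -0.02. In cells with more Cd4 UMIs Gzmc was at -0.639, Prf1 at -0.341, Gzmg at 2.011 and Ifng at -0.126. Gzmg had 1129, 291.6 and 39.9 CPM in those cells of anti-ACBP mice 1, 2 and 3. In isotype mice it had 82.3, 198.4 and 116.7 CPM there, so the groups overlapped.

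The clone overlap difference ran from -0.0679 to 0.0971 with 1 mouse left out (0.0153 without isotype mouse 3) and was 0.00141 with TRA added. The clonality difference ran from -1.73 to -0.342 percentage points, and with a replicate block its permutation p was 0.5. With 3 mice a group, p-values measure the spread between these mice only, and levels near 0 CPM rest on single molecules.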
